A study of Mus musculus with 4 samples.

Results

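Glutathione transferases are described here by 10 genes of the family, chosen by symbol (Gsta1, Gsta2, Gsta3, Gsta4, Gstm1, Gstm2, Gstm5, Gstp1, Gsto1 and Mgst1). All 10 are among the 24444 genes of the deposited table. The cells were oesophageal cells grown in culture, from mice of the C57BL/6J strain, and their poly(A) RNA was sequenced, as the sample labels state; the series' design text instead names a human breast cancer line and another targeted gene, and the title and labels were followed. One group, called E79Q cells below, has 2 libraries whose titles carry HET and whose labels give a Nfe2l2-E79Q cassette, introduced by CRISPR/Cas9 microinjection. The other group has 2 wild-type libraries with no cassette and no treatment. The series title describes a conditional mouse carrying a tumour-derived NRF2 mutation, but the sources used here do not give the Cre or promoter, the age of the mice or the number of animals. The column headers of all 4 libraries carry the word SV40, which the labels do not explain. Nothing says that the libraries of a group came from separate animals or cultures, so p-values measure the spread between these libraries, which may be technical.

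Glutathione transferases join the tripeptide glutathione to reactive, electron-poor molecules, which makes them water-soluble and ready for export. The cytosolic enzymes fall into classes named by Greek letters (alpha, mu, pi, omega and others), and a separate membrane-bound group sits in the endoplasmic reticulum and the outer mitochondrial membrane. NRF2, the transcription factor encoded by Nfe2l2, is known to drive several of them through the antioxidant response element, a short DNA motif. KEAP1 normally holds NRF2 at a low level, and the E79Q substitution lies in the part of NRF2 that KEAP1 binds.

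The promoter window of 250 bases before to 50 bases after the annotated start, taken from RefSeq on GRCm38.p6, was found for 9 of the 10 genes, all except Gsta4. The windows were searched on both strands for TGACNNNGC, the core of the antioxidant response element. At least 1 match stood in the windows of 3 genes, Gsta3, Mgst1 and Gstm5, against 14.0% of all 27025 genes with a window. These 3 windows are shown because they place a match beside the largest rise on the deposited scale (Gsta3), the smallest called rise (Mgst1) and the only gene of the 10 that was not called (Gstm5). Capitals mark the match, which begins 121, 56 and 42 bases before the start in Gsta3, Mgst1 and Gstm5; in Mgst1, which has a second window without a match, it lies on the opposite strand. The windows lie at chr1:21240335-21240634, strand plus for Gsta3, at chr6:138140277-138140576, strand plus for Mgst1 and at chr3:107895604-107895903, strand plus for Gstm5. A match is a description of the letters. Its absence from the other windows says nothing of elements farther away or of elements spelled otherwise within them. The Gstp1 window, for example, holds TGAGTCAGC, which has G where the searched motif has C and so was not counted.
Gsta3: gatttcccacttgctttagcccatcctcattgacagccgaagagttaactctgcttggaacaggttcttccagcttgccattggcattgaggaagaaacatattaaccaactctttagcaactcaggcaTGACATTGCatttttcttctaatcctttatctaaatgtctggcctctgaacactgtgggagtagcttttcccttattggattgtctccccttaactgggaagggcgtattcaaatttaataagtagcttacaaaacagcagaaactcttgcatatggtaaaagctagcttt
Mgst1: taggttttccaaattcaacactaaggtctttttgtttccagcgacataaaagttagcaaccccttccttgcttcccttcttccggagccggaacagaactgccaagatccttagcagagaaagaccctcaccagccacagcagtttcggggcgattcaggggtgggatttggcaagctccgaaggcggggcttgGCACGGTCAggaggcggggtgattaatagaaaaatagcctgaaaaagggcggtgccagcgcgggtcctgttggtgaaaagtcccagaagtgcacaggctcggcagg
Gstm5: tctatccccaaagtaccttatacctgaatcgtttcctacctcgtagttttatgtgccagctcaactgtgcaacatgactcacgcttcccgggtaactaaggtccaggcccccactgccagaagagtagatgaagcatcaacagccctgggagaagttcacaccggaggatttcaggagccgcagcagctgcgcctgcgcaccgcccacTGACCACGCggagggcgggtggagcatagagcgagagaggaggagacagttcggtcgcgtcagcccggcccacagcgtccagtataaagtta

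Some of these genes are near-identical copies of others, which limits what each single value can mean. In the GENCODE M21 annotation the coding sequence of Gsta1 was 97.6% identical to that of Gsta2 and 99.7% identical to that of Gm3776, a gene annotated only as predicted. Of all stretches of 31 consecutive bases in the Gsta1 transcripts, 92.2% also occurred in a transcript of another gene; the share was 58.8% for Gsta2, 57.8% for Gstp1, 30.4% for Gstm1, 17.4% for Gstm2 and 2.1% for Gsta3. It was 0 for Gsta4, Gstm5, Gsto1 and Mgst1. The 60 coding bases in which the alpha-class copies differ most are shown to make this visible, from coding base 469 to 528, with every position that differs among the 4 copies in capitals. Gsta1 and Gm3776 carry the same letters throughout this stretch.
Gsta1: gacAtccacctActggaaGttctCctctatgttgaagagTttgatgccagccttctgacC
Gm3776: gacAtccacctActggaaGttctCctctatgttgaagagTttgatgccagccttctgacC
Gsta2: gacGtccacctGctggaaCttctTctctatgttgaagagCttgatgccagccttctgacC
Gm10639: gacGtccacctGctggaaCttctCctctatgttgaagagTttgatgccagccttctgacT

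Gstp1 and Gstp2, of the pi class, were 98.1% identical over the coding sequence. Their most different 60 coding bases are the first 60, shown with the differing positions in capitals. Within this stretch, a read can be assigned to one copy by its sequence only where it covers one of these letters.
Gstp1: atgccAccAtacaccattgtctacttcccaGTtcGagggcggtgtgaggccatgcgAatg
Gstp2: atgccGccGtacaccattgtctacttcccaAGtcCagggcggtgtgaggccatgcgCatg

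The deposited values are variance-stabilised transformed (VST) values on a log2-like scale. Its floor of 6.98 was shared by 8120 genes in all 4 libraries, and changes near that floor are compressed. Some values of other genes lay slightly below it, down to 6.90. Estimated depth was about 15200000 and 13000000 reads in the E79Q libraries and 14200000 and 12600000 in the wild-type libraries. Differences are E79Q minus wild type ± the moderated SE over 2 pairs of libraries with the same replicate number. Calls required an adjusted p under 0.05 (limma, Benjamini-Hochberg over all 10857 tested genes). Normalised counts were obtained by reversing the transformation and are approximate. Because the values had been centred by replicate number before deposit, the spread between the 2 libraries of a group understates the original spread. Nfe2l2 itself was at 11.17 and 11.27 in E79Q cells, against 11.38 and 11.27 in wild-type cells, and was not called (adjusted p = 0.154 by limma). A substitution need not change the level of the transcript, so this does not check the labels.

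The transferases were mostly higher in E79Q cells. Of the 10 genes, 9 were called higher and 0 lower, where 21.5% of all tested genes were called higher and 18.9% lower (40.4% in either direction). In all 9 called genes both E79Q libraries lay above both wild-type libraries, which also held for 41.1% of tested genes, and in Gstm5 both lay below, as in 38.1%. Gsta1 and Gsta2 passed the filter on low values only through the E79Q libraries, so a difference was built into their inclusion; of the 8 genes above the filter in all 4 libraries, 7 were called higher. The median difference of these 8 was 0.71, against 0.01 over all tested genes. The calls cover every class represented, with rises of 0.50 to 2.18 on the deposited scale. The precision behind each call is largely borrowed from other genes, since 2 pairs alone cannot give an exact two-sided p below 0.5.

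**Figure D1:**
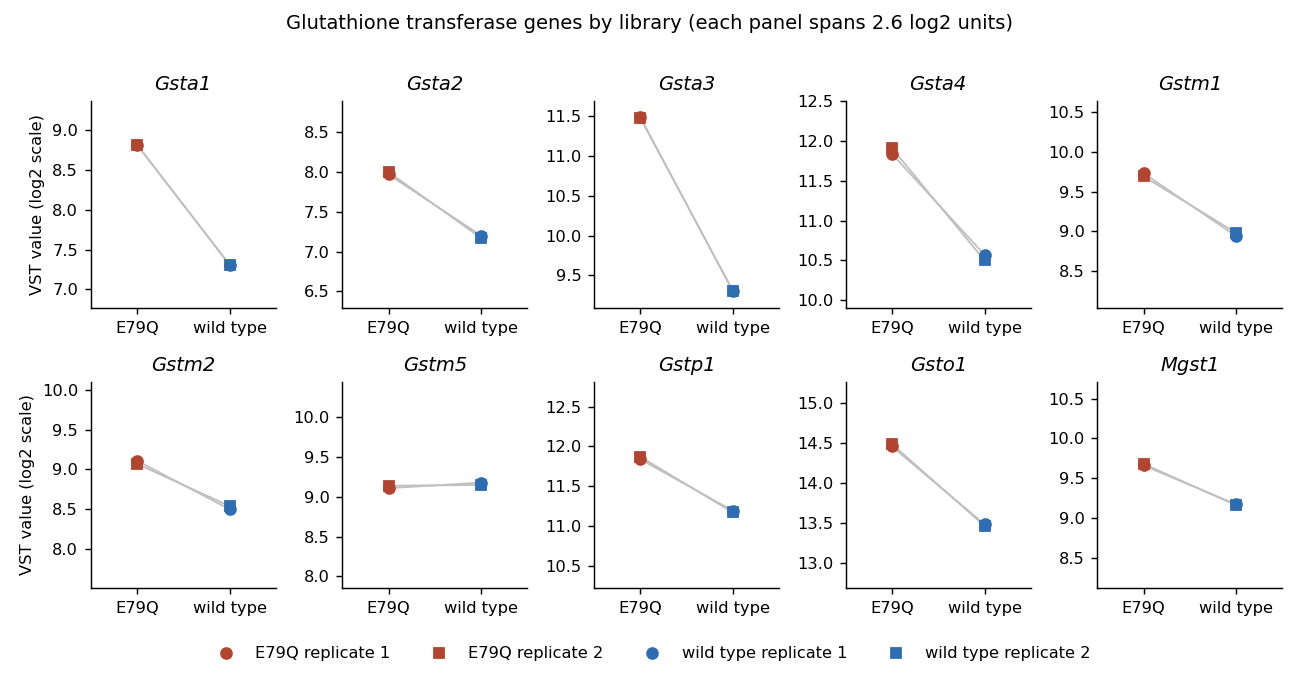
VST values (log2 scale, vertical axis) of the 10 transferases in each library, with E79Q on the left and wild type on the right of every panel, circles for replicate 1, squares for replicate 2 and grey lines joining libraries of one replicate number. All panels span the same range, so slopes can be compared on the VST scale only. That scale compresses changes near the floor, as in Gsta1 and Gsta2. Gsta3 has the steepest slope and Gstm5 is nearly flat.

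Among the alpha-class enzymes, which also reduce lipid hydroperoxides, Gsta3 showed the largest difference on the deposited scale. This enzyme is known in mice for conjugating the epoxide of aflatoxin. Its VST values were 11.49 and 11.48 in E79Q cells, against 9.30 and 9.31 in wild-type cells. The difference was 2.18 ± 0.05 (adjusted p = 1.28e-13 by limma), the 2nd largest rise of 10857 tested genes. In normalised counts Gsta3 had 2623 and 2606 in the E79Q libraries, against 403 and 407 in the wild-type libraries, a 6.45-fold ratio. The E79Q libraries lay far above the wild-type libraries in both pairs, and the low share of common stretches leaves this gene less exposed to its relatives than Gsta1 or Gsta2.

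Gsta1 and Gsta2 were barely detected in wild-type cells. Gsta1 was at 8.82 and 8.82 in E79Q cells and at 7.31 and 7.31 in wild-type cells, a difference of 1.51 ± 0.07 (adjusted p = 2.42e-10 by limma). Its normalised counts were 236 and 236 in E79Q cells, against 6.75 and 6.67 in wild-type cells. The ratio was 35.1-fold, which ranked 3rd of 10857 tested genes although the difference on the VST scale ranked 14th. Estimated reads for Gsta1 came to 482 over the E79Q libraries and 13 over the wild-type libraries, a ratio of 35.7. The exact 95% interval was 20.7 to 67.5, for counting error only. It leaves out how reads were divided between Gsta1 and its copies.

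Gsta2 was lower than Gsta1 in each library. It was at 7.97 and 8.0 in E79Q cells, against 7.20 and 7.17 in wild-type cells, a difference of 0.80 ± 0.08 (adjusted p = 7.93e-07 by limma). Its normalised counts were 61.8 and 66.2 in E79Q cells and 3.05 and 2.22 in wild-type cells, a 24.3-fold ratio that ranked 4th. With about 130 estimated reads in E79Q and 5 in wild type, the ratio from reads was 25 with an exact 95% interval of 10.5 to 78.4, again for counting error only. The 2 pairs gave ratios of 20.3 and 29.9.

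Gm3776, the closest copy of Gsta1, rose as well. It had 311 and 302 normalised counts in E79Q cells, against 7.59 and 8.80 in wild-type cells, a 37.4-fold ratio. The VST difference was 1.70 ± 0.07 (adjusted p = 5.20e-11 by limma). Like Gsta1 and Gsta2, Gm3776 passed the filter on low values only through the E79Q libraries, so a difference was built into its inclusion. Gm10639 was too low to be tested, with 10.9 and 18.1 normalised counts in E79Q cells and 1.75 and 0.146 in wild-type cells. The sum over Gsta1, Gsta2, Gm3776 and Gm10639 is less affected by how reads were divided among these 4 copies. It came to 619 and 622 normalised counts in E79Q cells, against 19.1 and 17.8 in wild-type cells. That is a 33.6-fold ratio for the group, with 32.3 and 34.9 in the 2 pairs. The grouping was made after the values were seen and was not tested.

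Gsta4, the alpha-class enzyme known for conjugating 4-hydroxynonenal, a product of lipid peroxidation, was already well expressed in wild-type cells. Its VST values were 11.84 and 11.91 in E79Q cells, against 10.57 and 10.50 in wild-type cells. The difference was 1.34 ± 0.05 (adjusted p = 1.93e-11 by limma) and the ratio of normalised counts 2.82-fold. Gsta4 shared no stretch of 31 bases with another gene, so reads of this length or longer could be assigned to it alone.

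**Figure D2:**
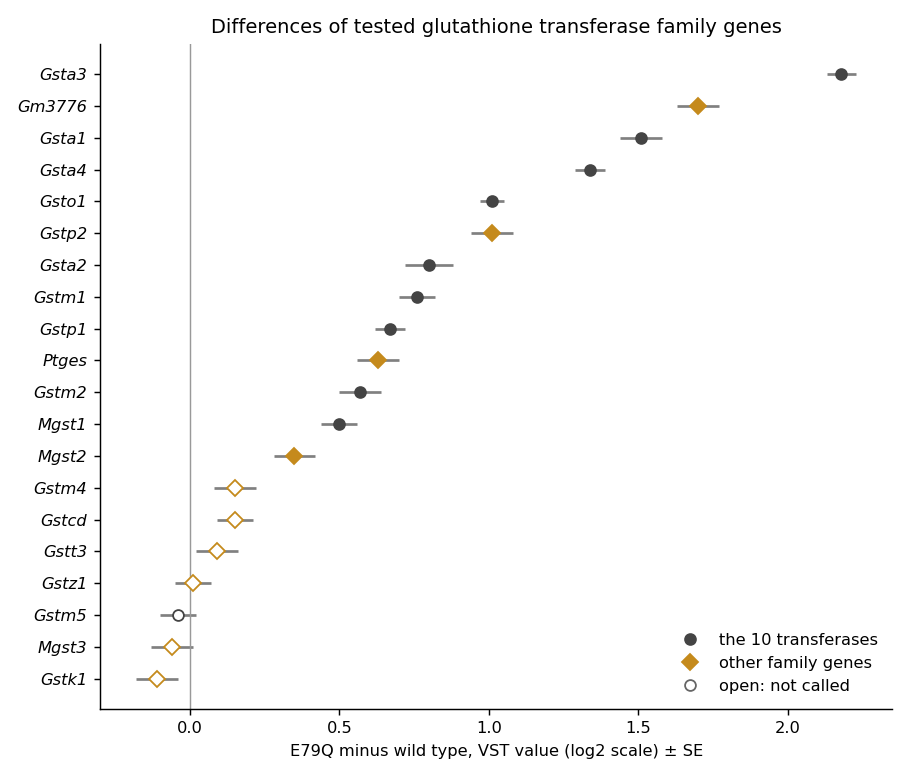
Differences between E79Q and wild type (horizontal axis, VST log2 scale, bars are moderated SE) for the 10 transferases, the copy Gm3776 and the other tested genes of the family, from the highest at the top. Filled symbols were called and open ones were not; Gsta3, Gm3776, Gsta1 and Gsta4 form the top of the order, and Gstm5 lies among the uncalled genes.

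The mu-class genes were split. Gstm1 and Gstm2, which conjugate epoxides and aromatic electrophiles, rose and Gstm5 was not called. Gstm1 was at 9.73 and 9.69 in E79Q cells, against 8.94 and 8.98 in wild-type cells, a difference of 0.76 ± 0.06 (adjusted p = 1.28e-07 by limma) and a 2.19-fold ratio of normalised counts. Gstm2 was at 9.11 and 9.07 in E79Q cells and at 8.5 and 8.54 in wild-type cells, a difference of 0.57 ± 0.07 (adjusted p = 6.49e-06 by limma) and a 2.03-fold ratio. In both genes the 2 E79Q libraries lay above the 2 wild-type libraries.

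Gstm5 was at 9.11 and 9.14 in E79Q cells, against 9.18 and 9.15 in wild-type cells. The difference was -0.04 ± 0.06 (adjusted p = 0.661 by limma), with a 95% interval of -0.17 to 0.10, so a change of the size seen in Gstm1 or Gstm2 lies outside it. The pairs differed by -0.07 and -0.01. Gstm5 has a coding sequence 70.0% identical to Gstm1 and 71.1% to Gstm2, whereas Gstm1 and Gstm2 were 85.9% identical.

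The other mu-class genes were low. Gstm4, with 190 and 172 normalised counts in E79Q cells and 139 and 154 in wild-type cells, was not called (0.15 ± 0.07, adjusted p = 0.101 by limma). Gstm6 had 56.0 and 49.9 normalised counts in E79Q cells, against 20.5 and 24.3 in wild-type cells, and fell below the filter, as did Gstm3 and Gstm7. Summed over Gstm1, Gstm2, Gstm3, Gstm4, Gstm6 and Gstm7, normalised counts were 1223 and 1157 in E79Q cells and 605 and 648 in wild-type cells, a 1.90-fold ratio. This grouping too was made with the values known and was not tested.

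Gstp1, the pi-class enzyme that also attaches glutathione to proteins, was at 11.84 and 11.87 in E79Q cells, against 11.19 and 11.17 in wild-type cells. The difference was 0.67 ± 0.05 (adjusted p = 2.56e-08 by limma) and the ratio of normalised counts 1.66-fold. Its copy Gstp2 was at 9.12 and 9.12 in E79Q cells and at 8.10 and 8.11 in wild-type cells, a difference of 1.01 ± 0.07 (adjusted p = 1.37e-08 by limma) and a 4.10-fold ratio. The sum of both genes, less affected by how their common reads were divided, was 3747 and 3815 normalised counts in E79Q cells, against 2178 and 2136 in wild-type cells, a 1.75-fold ratio. The third pi-class gene, Gstp3, stayed below 2 normalised counts in all 4 libraries.

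Gsto1, of the omega class, uses an active-site cysteine and is known as a thioltransferase and dehydroascorbate reductase. It was the most abundant of the 10 genes. Its VST values were 14.46 and 14.49 in E79Q cells, against 13.48 and 13.46 in wild-type cells, a difference of 1.01 ± 0.04 (adjusted p = 6.27e-11 by limma). Normalised counts were 22356 and 22773 in E79Q cells, against 11193 and 10986 in wild-type cells, a 2.03-fold ratio. Its neighbour in the class, Gsto2, was below the filter, with 36.3 and 32.1 normalised counts in E79Q cells and 27.1 and 31 in wild-type cells.

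Mgst1 is the membrane-bound enzyme that also reduces lipid hydroperoxides. It was at 9.66 and 9.68 in E79Q cells, against 9.17 and 9.16 in wild-type cells. The difference of 0.50 ± 0.06 (adjusted p = 8.33e-06 by limma) was the smallest among the called genes of the 10, with a 1.66-fold ratio of normalised counts. Mgst1 and Gstp1 had the same ratio as rounded, while on the VST scale Gstp1, which lies farther from the floor, had the larger difference.

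Scaled to transcript length, the order of the levels differed between the groups. Lengths were those of the longest coding transcript in GENCODE M21, which may not be the annotation used for counting. In E79Q cells Gsto1 had 19090 normalised counts per kb, followed by Gstp1 with 4202, Gsta4 with 3589 and Gsta3 with 1795. Mgst1 (498), Gstm1 (470), Gstm5 (356), Gstm2 (303), Gsta1 (269) and Gsta2 (73.6) followed.

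In wild-type cells Gsto1 (9382 normalised counts per kb), Gstp1 (2529) and Gsta4 (1271) held the same 3 places. Gstm5 came 4th with 371, ahead of Mgst1 (300), Gsta3 (278), Gstm1 (215) and Gstm2 (149), and Gsta1 (7.67) and Gsta2 (3.03) were last. The per-library values of neighbouring genes did not overlap within either group, but the centring had removed part of the spread. Close neighbours, such as Mgst1 and Gstm1 in E79Q cells or Mgst1 and Gsta3 in wild-type cells, are therefore not shown to differ. Gsto1 contributed 65.8% of the summed normalised counts of the 10 genes in E79Q cells and 69.5% in wild-type cells, while Gsta3 contributed 7.6% in E79Q cells and 2.5% in wild-type cells. The sum itself was 33965 and 34596 in E79Q cells, against 16113 and 15802 in wild-type cells, a 2.15-fold ratio.

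**Figure D3:**
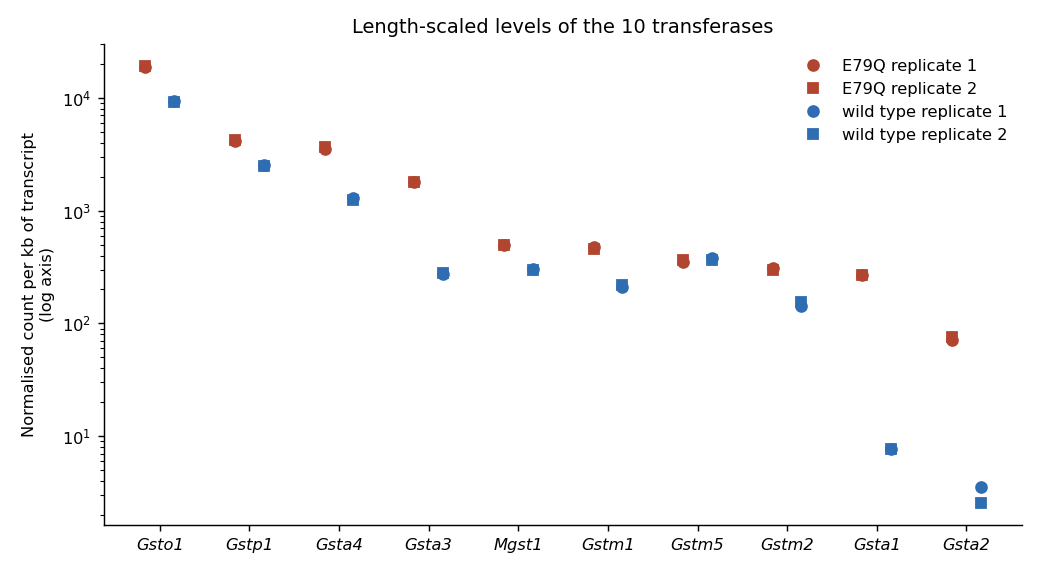
Normalised counts per kb of transcript (vertical log axis) for the 10 transferases, ordered by their level in E79Q cells, with the E79Q libraries left of the wild-type libraries for each gene. Gsto1 is highest in both groups, the gap between groups is widest for Gsta1 and Gsta2, and Gstm5 has no visible gap.

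The rest of the family was counted without Gm3776 and Gm10639, which were not on its list. Of 22 other genes listed for it, 20 are in the table, 9 were tested, and 3 were called higher and 0 lower, with a median difference of 0.15, where 21.5% of all tested genes were called higher. So small a count is not set apart from that background. Besides Gstp2, the called genes were Ptges and Mgst2, both membrane-bound relatives of Mgst1. Ptges, which makes prostaglandin E2, was at 10.03 and 10.22 in E79Q cells and at 9.59 and 9.40 in wild-type cells, a difference of 0.63 ± 0.07 (adjusted p = 6.97e-06 by limma). Mgst2, which can make leukotriene C4, was at 8.99 and 9.11 in E79Q cells and at 8.76 and 8.64 in wild-type cells (0.35 ± 0.07, adjusted p = 0.00124 by limma).

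The tested family genes that were not called covered other classes and places in the cell. Gstk1, the kappa-class enzyme of mitochondria and peroxisomes, had a difference of -0.11 ± 0.07, and Gstz1, the zeta-class enzyme of tyrosine breakdown, 0.01 ± 0.06. The theta-class gene Gstt3 had 0.09 ± 0.07, the membrane-bound Mgst3 -0.06 ± 0.07 and Gstcd, which carries a transferase-like domain, 0.15 ± 0.06 (adjusted p from 0.0578 to 0.874 by limma). Gstt4 was listed at the floor in all 4 libraries. The number of calls in this list was 5 without the replicate block, and also 5 when replicate 2 of either group was left out.

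Genes that act before and after the transferases were compared as lists. Among 12 genes of glutathione supply and recycling, all tested, the median was 0.25. Of these, 7 were called higher and 0 lower, where 21.5% of all tested genes were called higher. Gclc and Gclm, the 2 subunits of the first enzyme of glutathione synthesis, and Slc7a11, which imports cystine, had the largest rises. Gclc was at 13.15 and 13.27 in E79Q cells, against 11.33 and 11.21 in wild-type cells (1.94 ± 0.05, 4.15-fold). Gclm was at 11.19 and 11.19 in E79Q cells, against 9.80 and 9.79 in wild-type cells (1.39 ± 0.05, 3.19-fold). Slc7a11 was at 13.13 and 13.14 in E79Q cells, against 11.62 and 11.60 in wild-type cells (1.53 ± 0.04, 3.04-fold). Gsr, which regenerates reduced glutathione, was not called (0.09 ± 0.05, adjusted p = 0.157 by limma).

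For the export of conjugates and their conversion to mercapturates, 10 of 20 genes were tested, with 4 called higher and 1 lower and a median of 0.14. These 5 calls of 10 lie near the 40.4% of all tested genes called in either direction, so the count is no result about the list. The exporters Abcc3, Abcc1 and Abcc4 led, with VST differences of 1.15 ± 0.06, 0.63 ± 0.05 and 0.60 ± 0.05. Abcc5, also a transporter, was lower by a difference of -0.24 ± 0.06. The gamma-glutamyl transferase genes Ggt1, Ggt5, Ggt6 and Ggt7 and the dipeptidase genes Dpep1, Dpep2 and Dpep3, which trim the conjugate outside the cell, were all below the filter. Acy1, an aminoacylase, rose by 0.26 ± 0.07 (adjusted p = 0.00537 by limma). Without the replicate block this list had 8 calls.

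Of 17 other NRF2 target enzymes, 16 were tested, with a median of 1.07. In this list 15 were called higher and 0 lower, where 21.5% of all tested genes were called higher. Nqo1, a quinone reductase, Ptgr1, a reductase of prostaglandins and leukotrienes, and Aldh3a1, an aldehyde dehydrogenase, had the largest differences, at 2.23 ± 0.06, 1.90 ± 0.05 and 1.81 ± 0.07. Their ratios of normalised counts were 8.74, 4.82 and 11.4, all below the ratios of Gsta1 and Gsta2. All these lists and the 10 genes come from one comparison of the same 4 libraries, and no difference between lists was tested.

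**Figure D4:**
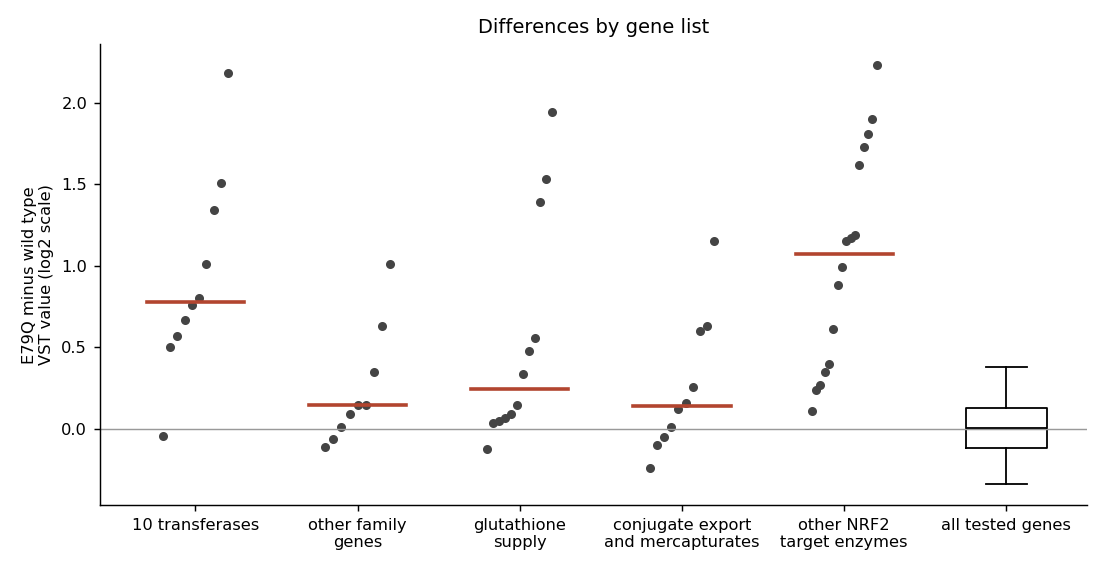
Differences between E79Q and wild type (vertical axis, VST log2 scale) for the tested genes of each list, with points for genes and red lines for list medians, and a box for all tested genes (quartiles, whiskers from the 5th to the 95th percentile). The 10 transferases have a median of 0.78, between the 1.07 of other NRF2 target enzymes and the 0.25 of glutathione supply, and 1 of them lies near 0.

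The genes whose pair of within-replicate differences came closest to those of the 3 transferases with the largest differences were found over the 4 libraries by Euclidean distance. For Gsta3 (2.19 and 2.17) they were Nqo1 (2.25 and 2.22, distance 0.0796) and Il1f9 (2.09 and 2.21, distance 0.102). For Gsta1 (1.51 and 1.51) they were Slc7a11 (1.51 and 1.54, distance 0.0272) and Abca12 (distance 0.0564). For Gsta4 (1.27 and 1.41) they were Sqrdl (1.18 and 1.35, distance 0.11) and Krt16 (distance 0.111). With 2 differences per gene, this measures little more than a similar size of change on the VST scale. Ratios of normalised counts can still lie far apart, as with Gsta1 at 35.1-fold and Slc7a11 at 3.04-fold.

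Some markers of cell types were called as well, where 21.5% of all tested genes were called higher and 18.9% lower. All 12 squamous markers were tested, 7 called higher and 3 lower, and their summed normalised counts were 193919 and 207602 in E79Q cells, against 185304 and 173933 in wild-type cells. Of 9 markers of simple columnar epithelium, 5 were tested and all 5 called lower, with sums of 24264 and 24290 in E79Q cells and 37728 and 37717 in wild-type cells; Muc5ac, Tff1 and Tff2 were at 0 in every library. Of 10 fibroblast markers 3 were tested, with 1 higher and 2 lower, and sums of 2199 and 2214 in E79Q cells and 3083 and 3084 in wild-type cells; Lum was at 0. Of 7 muscle markers 2 were tested and called lower, with sums of 359 and 328 in E79Q cells and 1031 and 1086 in wild-type cells. Leukocyte markers summed to 377 and 415 in E79Q cells and 190 and 168 in wild-type cells, with 1 of 8 tested and called higher and Ptprc, Cd3e and Tyrobp at 0, and the 5 endothelial markers were all below the filter, with sums of 13.3 and 10.6 in E79Q cells, 17.0 and 22.4 in wild-type cells and Emcn at 0. The part of these shifts in the transferase differences was not tested, and a change in the share of cells cannot be told apart from a change in RNA per cell.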

How the data were processed

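Poly(A) RNA-seq values of 4 libraries were analysed as deposited. Per the submitters' processing notes, mm9, DESeq2, DESeq 1.22.2, Salmon 0.11.3 and STAR 2.5.2b were used, without the role of each; the sources used here do not give the annotation or strand setting. The deposited values are variance-stabilised log2 values (6.90 to 18.7), 1 per gene and library, made by the authors.

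In all 24444 genes the E79Q and wild-type values of replicate 1 and of replicate 2 have equal sums, to within 1.31e-13, so values had been centred by replicate number, a step the labels do not record. The replicate number, from the titles, therefore entered the fit as a block. The sources used here do not say what libraries of 1 number share.

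Genes at least 1 above the lowest value in at least 2 libraries (10857) were tested with limma 3.58.1 in R 4.3.3 (trended empirical Bayes, two-sided, Benjamini-Hochberg, adjusted p under 0.05), with 1 residual and 14.6 prior degrees of freedom. The fit was tested on simulated data. Normalised counts come from inverting the parametric stabilisation from its floor. In 1131 genes seen in 1 library only, all back-transformed values were whole multiples of 1 step per library, within 1e-06 of a step; these steps gave the estimated reads. Intervals on reads cover counting error only, and leave out the centring and the division of reads among copies.

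The 10 genes and all lists were chosen with earlier results of these data known. Named besides the 10 genes are, by rule, called family genes and copies, the 3 called genes with the largest absolute difference of each other list, Nfe2l2 and Keap1, and the nearest patterns; other genes were named after their values were seen. Keap1 fell by 0.18 (adjusted p = 0.0151 by limma). Alternatives covered the block, the filter, scaling, empirical Bayes settings, the scale of the values and each library left out.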

Additional observations from a re-analysis of the deposited data

How the results depend on the processing

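All 9 called transferases kept their direction and their call under each alternative in which they were tested, and Gstm5 stayed uncalled in each; Gsta1 and Gsta2 dropped out when the filter had to be met in all 4 libraries, which left 7 calls. Over all alternatives their adjusted p-values (limma) were at most 0.0026. Without the replicate block 9 of the 10 were again called, while the number of all genes called was 6004, against 4388 with the block. The same fit moved the calls among other family genes to 5 and among conjugate export and mercapturate genes to 8, and leaving out 1 library at a time gave 4 to 5 calls among other family genes. The cause was not tested. The fit without the block counts 2 residual degrees of freedom, although the centring leaves 1. The fits without 1 library have no block and assume that the lone library of a group varies like the other group. Their values had been centred with the omitted library included. Leaving out replicate 1 of either group therefore gave the same difference, such as 0.82 for Gsta2, so these fits are not separate checks. Median centring and quantile normalization turned the split of all calls to 2048 higher and 2313 lower and to 2155 higher and 2269 lower, against 2333 and 2055; the median over all genes moved by -0.0179 and -0.0101. On log2 of the normalised count plus 1, Gsta1 and Gsta2 differed by up to 4.94 and 4.17. Depth limits these genes most, with about 13 and 5 wild-type reads.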
